A study of Bos taurus with 21 samples.

Results

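The abundance of mitochondria in a muscle fibre depends on a small set of nuclear genes that control the expression of mitochondrial proteins and the copying and transcription of mitochondrial DNA (mtDNA). The coactivator *PPARGC1A* (also known as PGC-1 alpha) binds nuclear receptors such as *ESRRA* and *PPARA* and nuclear respiratory factors such as *NRF1*, which switch on genes of the respiratory chain and of fatty acid oxidation. One of the genes downstream of the nuclear respiratory factors is *TFAM*, which packages mtDNA and starts its transcription together with *TFB2M*. *TFB1M* is a relative of *TFB2M* that methylates ribosomal RNA inside the organelle, while *POLG*, *DGUOK* and *TK2* copy mtDNA or supply the nucleotides for it in cells that have left the cell cycle. These 10 regulators are described here in the muscle of cattle foetuses, by gestation stage and by breed. A gene was represented by every array probe whose transcript accession belongs to it in the cattle annotation, without use of any measured value. In this way 15 of 43653 probes were assigned to 8 of the 10 regulators. *POLG* and *TK2* had no probe matched through these accessions and were not analysed here, and the same holds for the 13 protein genes of mtDNA itself.

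RNA of 21 foetuses was measured, each on its own single-colour array, at 110, 180, 210 and 260 days post conception (dpc), the last stage being close to term. The 10 Blonde d'Aquitaine (BA) foetuses numbered 3, 2, 3 and 2 at these stages and the 11 Charolais (CH) foetuses 2, 3, 3 and 3. Both are French beef breeds, BA being the more muscular, and the foetuses of each breed had 2 sires. The BA foetuses of 180 dpc shared a sire, as did those of 260 dpc and the 3 CH foetuses of 210 dpc. Males numbered 3 of 10 in BA and 5 of 11 in CH, and the groups of 2 held females only. A myostatin mutation is frequent in BA, but the foetuses were not genotyped for it. The labels and the study's methods name different muscles, m. Longissimus thoracis and m. Semitendinosus. Replicates were separate foetuses. Hybridization used 6 slides, read on 3 days. Each array had between 29027 and 34507 probes well above background (median 30546), and the number of arrays, 2 or 3 per group, limits the precision of every comparison. A level below is the log2 intensity of a probe scaled to the 75th percentile of its array, with 0 set near the median probe, so that a difference of 1 is a 2-fold difference in intensity. Levels of different probes were not compared, because brightness depends on the probe.

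The muscle markers lay above the median probe of an array, with mean levels at 110 and 260 dpc of 9.29 and 11.92 for the actin *ACTA1*, 8.18 and 11.32 for the creatine kinase *CKM* and 10.03 and 11.06 for desmin. Of 5 muscle markers with a probe these 3 rose and *MYOG*, a factor of differentiating myoblasts, fell (−0.78), while the myoblast factor *MYOD1* gave −0.05, and their sums were 37.6 to 44.6 at 110 dpc and 46.2 to 48.0 at 260 dpc. Markers of other cells moved between the same stages. Their counts stand beside 33.8% of all tested genes called higher and 31.5% called lower. Those shares are from the fit of the probes that passed the filter given below. In the fit of all probes, 5 of 7 fibroblast markers fell between 110 and 260 dpc and none rose, and their summed level was 49.7 to 56.1 in the early foetuses and 45.0 to 49.8 in the late ones. Of 5 erythroid markers 4 fell, with sums of 8.42 to 12.6 and 0.344 to 8.39, while *SLC4A1* was well above background on 1 array. Of 6 adipocyte markers 3 rose, with sums of −9.25 to 2.55 and −2.58 to 9.12, and *LEP* was well above background on 3 arrays. Endothelial markers moved both ways (3 of 7 rose and 1 fell, sums 21.9 to 23.9 and 21.9 to 24.6), as did leukocyte markers (3 of 8 rose and 2 fell, sums 8.38 to 18.0 and 11.9 to 14.7). The part of these markers in the results was not tested. In whole muscle, fewer cells of a type and less RNA per cell cannot be told apart.

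A probe entered the comparisons when 7 or more of the 8 group means exceeded 0. Of the 15 regulator probes 10 did so, and they covered 6 regulators, *PPARGC1A*, *ESRRA*, *TFAM*, *TFB1M*, *TFB2M* and *DGUOK*, each above 0 in all 8 groups by its brightest probe. *NRF1* and *PPARA* stayed below 0 in every group. The *NRF1* probe was well above background on all 21 arrays and the *PPARA* probe on 15. These 2 genes are reported from the fit of all 43653 probes, with a Benjamini-Hochberg adjustment over all of them. All other adjusted p values are from limma over the 20132 probes that passed, which include the brightest probes of 7932 named genes.

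*PPARGC1A* rose 2.58-fold, *ESRRA* 2.86-fold and *TFB2M* 1.31-fold, while *TFAM*, *TFB1M* and *DGUOK* did not pass the test. Thus 3 of 6 tested regulators were called higher and none lower, where 33.8% of all tested genes were called higher and 31.5% lower. *PPARA*, dim as it was, rose as well in the fit of all probes.

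**Figure D1:**
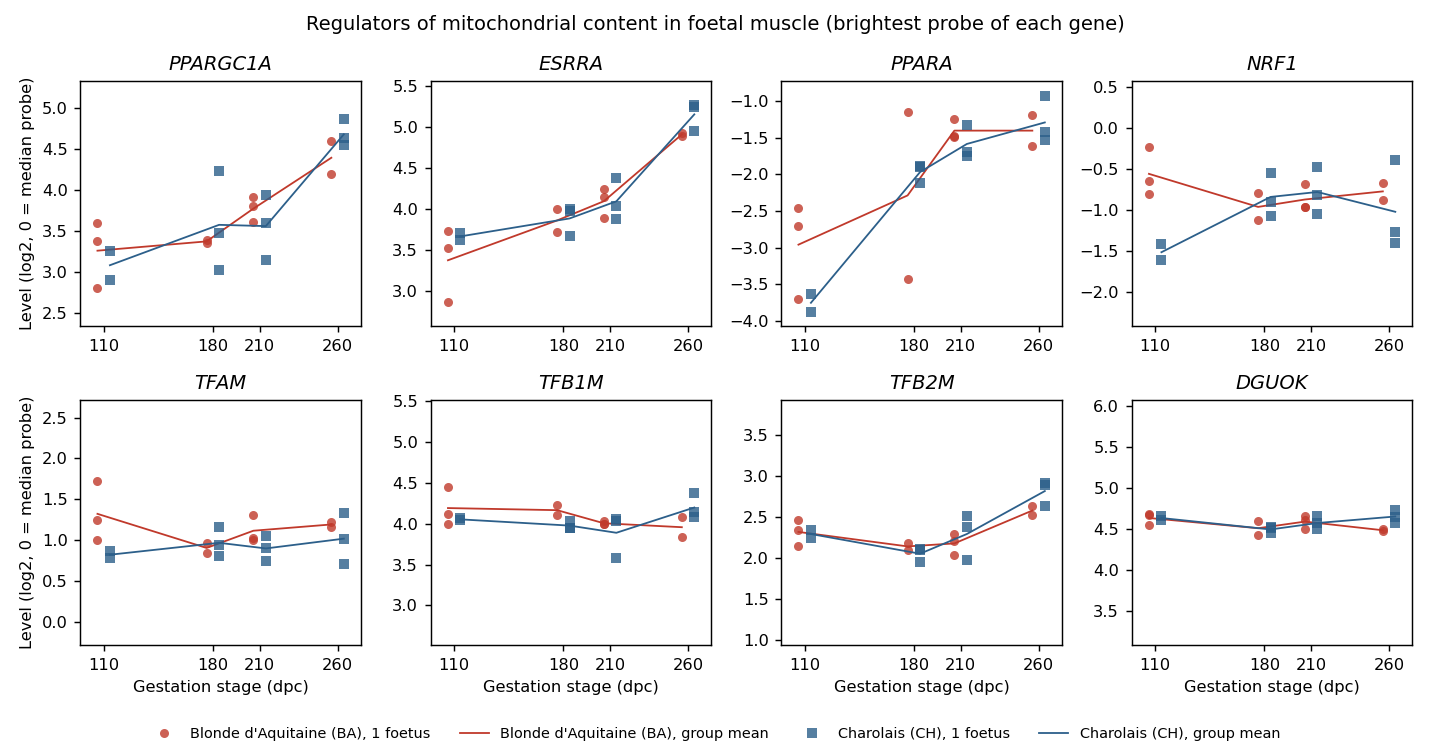
Level (log2, 0 set near the median probe of an array) of the 8 regulators against gestation stage in days post conception. Each circle is a BA foetus and each square a CH foetus, shifted sideways for clarity, and lines join the means of the 2 or 3 foetuses of a group. *PPARGC1A* and *ESRRA* were highest at 260 dpc in both breeds, *PPARA* was lowest at 110 dpc, where 4 of 5 signals were not well above background, and the *TFAM*, *TFB1M* and *DGUOK* foetuses of 110 and 260 dpc overlap.

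*PPARGC1A*, the coactivator, was measured by probe A_73_108828. Its levels at 110 dpc were 2.80, 3.60 and 3.37 in BA and 2.90 and 3.26 in CH, and at 180 dpc 3.39 and 3.35 in BA and 3.47, 4.24 and 3.02 in CH. At 210 dpc they were 3.91, 3.80 and 3.61 in BA and 3.94, 3.59 and 3.14 in CH, and at 260 dpc 4.60 and 4.19 in BA and 4.55, 4.63 and 4.86 in CH. Every foetus of 260 dpc lay above every foetus of 110 dpc, whereas 1 CH foetus of 180 dpc reached the range of 260 dpc. Among all tested probes, 25.3% separated the foetuses of these 2 stages upwards. The difference between 260 and 110 dpc was 1.37 on the log2 scale (SE 0.21, limma, adjusted p = 2.20e-05, n = 5 and 5). Most of it fell in the last step, from 210 to 260 dpc, with 0.87 (SE 0.20, limma, adjusted p = 0.00201). On the authors' values without scaling between arrays, on which the median tested probe fell by 0.39 in that step, it was 0.46 and not called (limma, adjusted p = 0.143), or 0.85 relative to that median. The earlier steps gave 0.30 (95% interval −0.14 to 0.75) and 0.19 (−0.23 to 0.62) and did not pass.

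The other *PPARGC1A* probes showed changes of like size. The second probe that passed the filter, A_73_P100476, was higher by 1.22 (SE 0.21, limma, adjusted p = 7.44e-05). The third probe, well above background on 18 of 21 arrays and under the filter, was higher by 1.20 (SE 0.34, adjusted p = 0.00925 in the limma fit of all probes). In each of the 3 probes all foetuses of 260 dpc exceeded all of 110 dpc. *PPARGC1A* rose in each breed taken alone, by 1.14 in BA (adjusted p = 0.0041) and by 1.60 in CH (adjusted p = 2.48e-04), both from limma, beside 28.6% and 27.7% of all tested genes called higher.

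*ESRRA* encodes the orphan nuclear receptor ERR alpha, a main partner of *PPARGC1A* at respiratory chain genes. Probe A_73_102434 gave levels of 2.86, 3.73 and 3.53 in BA and 3.70 and 3.62 in CH at 110 dpc, and of 4.89 and 4.93 in BA and 4.95, 5.27 and 5.24 in CH at 260 dpc. The intermediate stages lay between 3.66 and 4.00 at 180 dpc and between 3.87 and 4.37 at 210 dpc. The stages of 110 and 260 dpc were well apart, and no foetus of 210 dpc reached the lowest foetus of 260 dpc. The rise from 110 to 260 dpc was 1.52 (SE 0.15, limma, adjusted p = 1.28e-07), of which 0.94 (SE 0.14, limma, adjusted p = 5.57e-05) came after 210 dpc. A second, dimmer probe outside the filter gave 1.54 (SE 0.16). Before 210 dpc the steps were 0.35 (95% interval 0.04 to 0.67, limma, adjusted p = 0.101) and 0.22 (−0.08 to 0.52). The change was 1.54 in BA and 1.49 in CH.

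*PPARA*, the fatty acid receptor that drives lipid oxidation genes, was close to background early in gestation. None of the CH foetuses of 110 dpc and 1 of 3 BA foetuses had a *PPARA* signal well above background, while all 5 foetuses of 260 dpc did. Levels at 110 dpc were −3.71, −2.47 and −2.71 in BA and −3.87 and −3.63 in CH. At 260 dpc they were −1.62 and −1.19 in BA and −1.53, −0.93 and −1.43 in CH. The 2 stages did not overlap, and the measured difference was 2.01 (SE 0.34, adjusted p = 1.39e-04 in the limma fit of all probes). In CH, the mean at 260 dpc was 2.67-fold above the mean of the lowest signals that counted as well above background on the CH arrays of 110 dpc, although a *PPARA* signal of −1.75 on a CH array of 210 dpc was not well above background either. The first step gave 1.23 (SE 0.34, adjusted p = 0.0241 in the limma fit of all probes), measured against a stage at which 4 of 5 signals were not well above background. The last step was 0.15 (95% interval −0.53 to 0.83). The 2 BA foetuses of 180 dpc lay far apart, at −3.43 and −1.15, and the first was not well above background. In female foetuses alone the change to 260 dpc was 1.69 and lost its call (adjusted p = 0.0522).

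*NRF1*, the nuclear respiratory factor, was not called. Its levels were −0.80, −0.64 and −0.23 in BA and −1.61 and −1.42 in CH at 110 dpc. At 260 dpc they were −0.88 and −0.67 in BA and −0.39, −1.27 and −1.41 in CH. The stages overlapped, and the 1 high CH foetus of 260 dpc decided the sign, since without it the change turned from 0.14 to −0.02. The 95% interval of the change was −0.27 to 0.55 (adjusted p = 0.589 in the limma fit of all probes), so that a rise of the size of *ESRRA* lay outside it. Normexp background correction gave 0.28 with a call (limma, adjusted p = 0.0262), but the median probe rose by 0.22 there. Relative to that median the *NRF1* change was 0.06. The authors' unscaled values gave −0.25, or 0.12 relative to their median probe.

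Among the factors that act on mtDNA, *TFAM* was at 1.24, 1.00 and 1.72 in BA and 0.78 and 0.87 in CH at 110 dpc. At 260 dpc it was at 1.22 and 1.17 in BA and 0.71, 1.33 and 1.02 in CH, within the range of the early foetuses but for 1 of 5. The difference was 0.03 (SE 0.14, 95% interval −0.26 to 0.32, limma, adjusted p = 0.844), and none of the 3 steps passed. *TFB1M*, with levels of 4.00 to 4.46 early and 3.84 to 4.38 late, gave −0.04 (95% interval −0.27 to 0.18). The dimmer *TFB1M* probe, which answers to another transcript record of the gene, gave 0.10 (−0.28 to 0.49).

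*TFB2M*, the transcription factor that opens the mtDNA promoter, was the 1 regulator whose product acts on mtDNA that rose. It stood at 2.35, 2.47 and 2.14 in BA and 2.25 and 2.34 in CH at 110 dpc, and at 2.52 and 2.64 in BA and 2.64, 2.90 and 2.92 in CH at 260 dpc. The stages did not overlap, although the nearest foetuses, at 2.47 and 2.52, were close. The change was 0.39 (SE 0.10, limma, adjusted p = 0.00337), made up of a step of 0.46 (SE 0.10, limma, adjusted p = 0.00118) after 210 dpc that followed a lower value at 180 dpc. In BA alone it was 0.26 (limma, adjusted p = 0.15) and in CH alone 0.53 (limma, adjusted p = 0.00672); the change in BA minus that in CH was −0.26 (95% interval −0.71 to 0.18). The second *TFB2M* probe gave 0.25 (95% interval −0.02 to 0.52, limma, adjusted p = 0.102) for 260 against 110 dpc, but passed for the last step (0.39, limma, adjusted p = 0.0144). On the authors' values without scaling between arrays, on which the median tested probe fell by 0.36, the *TFB2M* change was 0.0033 and no call was made.

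*DGUOK*, the kinase that recycles purine deoxynucleosides in mitochondria, had the narrowest range of the regulators, from 4.42 to 4.74 over all 21 foetuses. Its brightest probe gave −0.07 (95% interval −0.21 to 0.08) for 260 against 110 dpc. The other 2 probes had the opposite sign, at 0.19 (0.01 to 0.36, limma, adjusted p = 0.0565) and 0.14 (−0.07 to 0.35), and the stages overlapped in all 3. For the brightest probe, quantile scaling gave −0.17 with a call (limma, adjusted p = 0.0341), and median scaling turned the sign (0.0352), as did the mean of the 3 probes (0.0860).

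**Figure D2:**
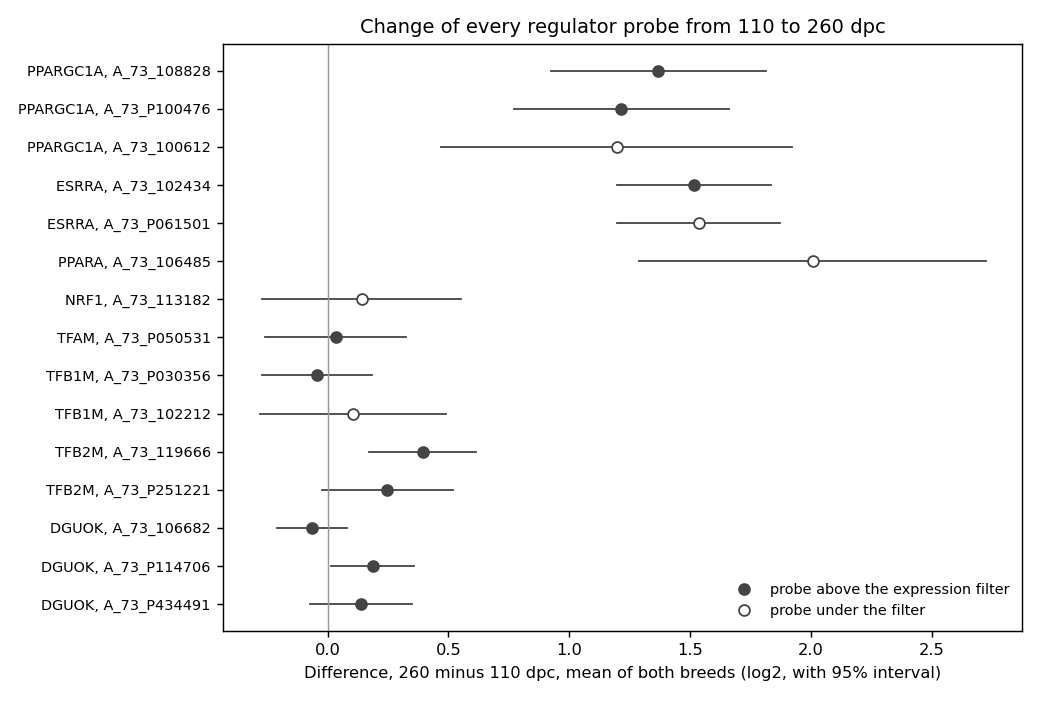
Difference between 260 and 110 dpc (log2, mean of the BA and CH differences) of each of the 15 regulator probes, with its 95% interval from limma as a bar. Filled circles are probes that passed the expression filter and open circles those that did not. All 3 *PPARGC1A* probes, both *ESRRA* probes and the *PPARA* probe lie above 1, and those of *NRF1*, *TFAM* and *TFB1M* have intervals across 0.

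Set against all 7932 tested genes, the rise of *ESRRA* exceeded that of 94.8% and the rise of *PPARGC1A* that of 93.6%, *TFB2M* lay above 71.1%, and *TFAM*, *TFB1M* and *DGUOK* lay above 50.0%, 45.0% and 43.7%. For the last step alone the first 3 stood above 97.0%, 96.1% and 85.0% of genes. All 3 were called in the last step, although on the authors' unscaled values only *ESRRA* was (0.53, limma, adjusted p = 0.0306) and *TFB2M* gave 0.05 (limma, adjusted p = 0.847). In that step 25.4% of tested genes were called higher, against 13.6% from 110 to 180 dpc and 4.85% from 180 to 210 dpc. None of the 6 tested regulators passed at either of these earlier steps (limma, with an unadjusted p under 0.05 for 1, *ESRRA* from 110 to 180 dpc).

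The genes whose products make up mitochondria rose over the same interval. Of 75 tested nuclear genes of the respiratory chain and ATP synthase, 71 were higher at 260 than at 110 dpc and 3 lower, with a median difference of 1.22, where the median of all tested probes was 0.04. The steps had medians of 0.20, 0.21 and 0.76, and 18, 9 and 71 of the 75 genes were called higher in them. *ESRRA* rose more than 62 of these 75 genes, *PPARGC1A* more than 54, and *TFB2M*, *TFAM*, *TFB1M* and *DGUOK* more than 3. Those 3 were the genes that fell, *COX7A2* (−0.997, SE 0.10), *COX6A1* (−0.80, SE 0.08) and *COX8A* (−0.76), which encode the isoforms of 3 cytochrome c oxidase subunits found in most tissues. Their counterparts of heart and skeletal muscle, *COX7A1* (3.21, SE 0.17), *COX6A2* (1.46) and *COX8B* (2.67), rose, the last 2 pairs being named after their values were seen. *SDHB*, an iron-sulphur subunit of succinate dehydrogenase, rose by 2.38 (SE 0.11).

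Per foetus, the median level of the 75 genes, each centred on its own mean over the arrays, lay between −0.60 and −0.37 at 110 dpc, −0.37 and −0.11 at 180 dpc, −0.16 and 0.04 at 210 dpc and 0.42 and 0.96 at 260 dpc. The foetuses of 260 dpc were thus apart from all others, as were those of *PPARGC1A* and *ESRRA* with the 1 exception at 180 dpc named above. The CH foetus with the lowest respiratory chain level of its stage, at 0.42, was also the lowest of the 3 CH foetuses of 260 dpc for *PPARGC1A*, *ESRRA*, *PPARA*, *TFAM*, *TFB2M* and *DGUOK*, but the highest for *NRF1* and *TFB1M*. Without it the changes to 260 dpc were 1.40 for *PPARGC1A* and 1.57 for *ESRRA*.

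Other mitochondrial lists are given beside the 33.8% of all tested genes called higher and the 31.5% called lower. All 17 citrate cycle genes were higher at 260 dpc (median 1.44), among them *SUCLA2* (1.95, SE 0.09), a succinyl-CoA ligase subunit, and *OGDH* (1.44, SE 0.09), the oxoglutarate dehydrogenase. Of 16 fatty acid oxidation genes 14 rose and none fell (median 1.07), led in p by the acyl-CoA dehydrogenase *ACADVL* (2.06, SE 0.09) and by *ETFDH* (2.28, SE 0.12), which passes electrons to ubiquinone. Of 8 tested genes known as targets of PPAR receptors 7 rose (median 1.46), including the fatty acid transporter *CD36* (2.23, SE 0.09) and the lipase *LPL* (3.97, SE 0.18), and *PLIN2* gave 0.36 (adjusted p = 0.0915, limma). Mitochondrial ribosomal proteins had a lower median, 0.50, with 53 of 74 genes higher and 3 lower, and the import and chaperone genes a median of 0.40 with 15 of 19 higher. Of the genes that fuse and divide mitochondria, 3 of 5 rose, including the fusion protein *OPA1* (0.89, SE 0.12) and *MFF* (0.57, SE 0.09), a receptor for the fission dynamin.

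**Figure D3:**
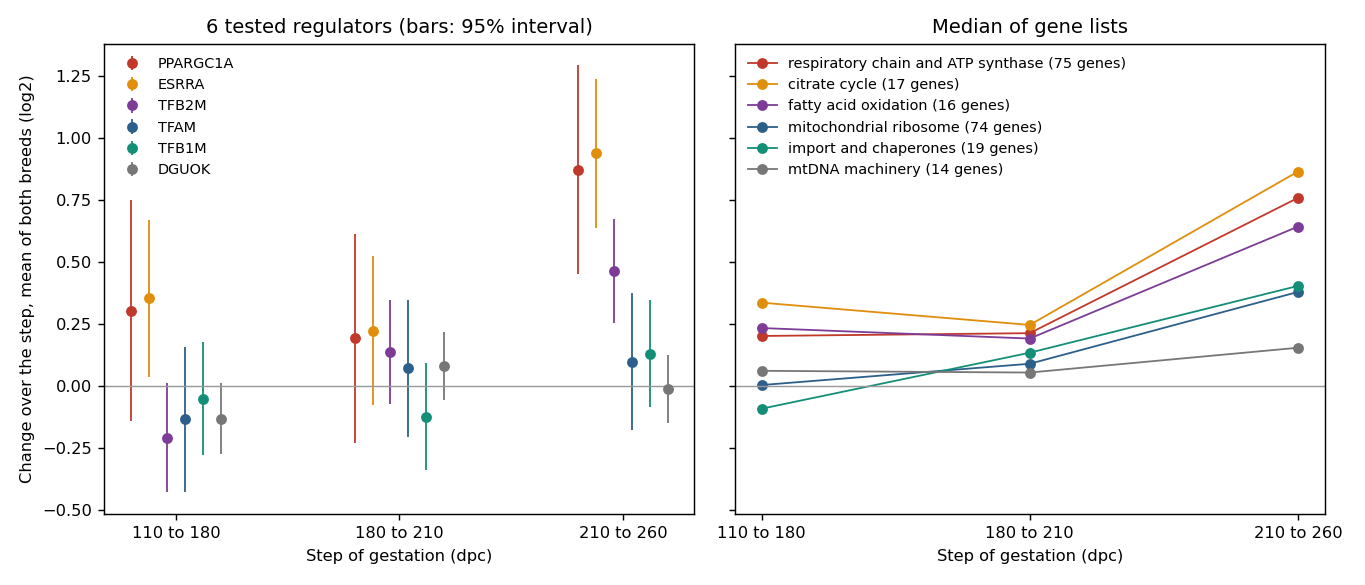
Change over each step of gestation (log2, mean of both breeds). On the left, the 6 regulators that passed the filter are drawn with their 95% intervals, and on the right, points joined by lines are the medians of 6 lists of mitochondrial genes, with the number of genes tested. *PPARGC1A* and *ESRRA* changed by 0.87 and 0.94 and the respiratory chain median by 0.76 in the last step, while the mtDNA machinery median was 0.15.

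In the wider mtDNA machinery, 5 of 14 tested genes were higher at 260 dpc and 3 lower, with a median of 0.22, and the share called higher was near the 33.8% of all tested genes. *TEFM*, the elongation factor of mtDNA transcription, rose by 1.04 (SE 0.08, limma, adjusted p = 2.56e-09) and the transcription termination family member *MTERF2* by 0.83 (SE 0.10). The exonuclease *MGME1*, which trims ends of replicating mtDNA, fell by 1.01 (SE 0.10, limma, adjusted p = 1.31e-07) and the nucleoid protein *ATAD3A* by 0.46 (SE 0.08). The mtDNA polymerase subunit *POLG2* gave −0.05 and the mitochondrial RNA polymerase *POLRMT* −0.02 and neither passed.

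Of 8 tested genes of nucleotide supply besides *DGUOK*, 7 fell and 1 rose. The counts in this paragraph stand beside 31.5% of all tested genes called lower and 33.8% called higher. *RRM2*, the ribonucleotide reductase subunit of dividing cells, fell by 2.69 (SE 0.14) and the thymidylate kinase *DTYMK* by 1.63 (SE 0.12), whereas the mitochondrial nucleotidase *NT5M* rose by 0.38 (SE 0.11, limma, adjusted p = 0.00738). All 4 tested proliferation genes fell in the same interval (median −1.22), including the replication helicase subunits *MCM5* and *MCM6*, and the part of cell division in these values was not tested. The brightest *DGUOK* probe changed less than any of these 8 genes.

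Other regulators of the same network moved both ways. Of 19 tested genes 9 rose and 5 fell, beside 33.8% and 31.5% of all tested genes, and their median was 0.24. The lowest p among the higher genes belonged to the histone deacetylase *HDAC5* (2.04, SE 0.10) and the lysosome and metabolism factor *TFEB* (1.17, SE 0.10). Those among the lower genes were *PPRC1* (−0.99, SE 0.13, limma, adjusted p = 2.87e-06), a coactivator of the PPARGC1A family found in proliferating cells, and the retinoid receptor *RXRG* (−1.39, SE 0.22). Named after their values were seen, *GABPA*, the DNA-binding part of nuclear respiratory factor 2, gave 0.17 (limma, adjusted p = 0.0713) and its partner *GABPB1* −0.28 (limma, adjusted p = 0.0119).

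The genes whose 8 group means followed a regulator most closely were taken from all 7932 tested genes, with Pearson's r as a description only, since the group means share the stage trend and are few. For *ESRRA* they were *HSD17B8* (r = 0.998), *ATP5F1A* (r = 0.998), the alpha subunit of ATP synthase, and *IDH3B* (r = 0.997), a subunit of the citrate cycle isocitrate dehydrogenase. For *PPARGC1A* they were the junction protein *TJP3* (r = 0.992), *UBXN4* (r = 0.991) and *COX14* (r = 0.991), an assembly factor of cytochrome c oxidase. For *TFAM* they were *TNS4* (r = 0.979), *TMEM107* (r = 0.959) and *IL1RL1* (r = 0.931).

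Between the breeds, no regulator passed the test. With the stages averaged, 0 of 6 tested regulators differed between BA and CH by limma, where 0.403% of tested genes were called. *TFAM* was the 1 regulator with an unadjusted p under 0.05. It was higher in BA by 0.21 (SE 0.09, 95% interval 0.01 to 0.41, limma, adjusted p = 0.389), and an exact two-sided permutation of breeds within stages gave p = 0.0629. *TFAM* was higher in BA in 5 of 6 pairs of foetuses of 1 stage that shared a slide. Its difference was largest at 110 dpc, where all 3 BA foetuses were above both CH foetuses (0.50, 95% interval 0.09 to 0.91, limma, adjusted p = 0.267), beside 29.1% of tested probes whose breeds did not overlap at that stage. Of the BA foetuses of 110 dpc 2 were male and 1 female, while both CH foetuses were female, so breed and sex are mixed at that stage. At 180, 210 and 260 dpc the *TFAM* difference was −0.06, 0.22 and 0.17, with overlapping breeds.

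The remaining averages were −0.02 for *PPARGC1A* (95% interval −0.33 to 0.28), −0.14 for *ESRRA* (−0.36 to 0.08), −0.06 for *TFB2M* (−0.21 to 0.09), 0.05 for *TFB1M* (−0.11 to 0.21) and −0.03 for *DGUOK* (−0.13 to 0.07). These intervals leave room for average breed differences of up to about 0.36 and, for *DGUOK*, of up to 0.13. The dim genes gave 0.25 for *NRF1* (−0.04 to 0.53) and 0.14 for *PPARA* (−0.36 to 0.63).

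**Figure D4:**
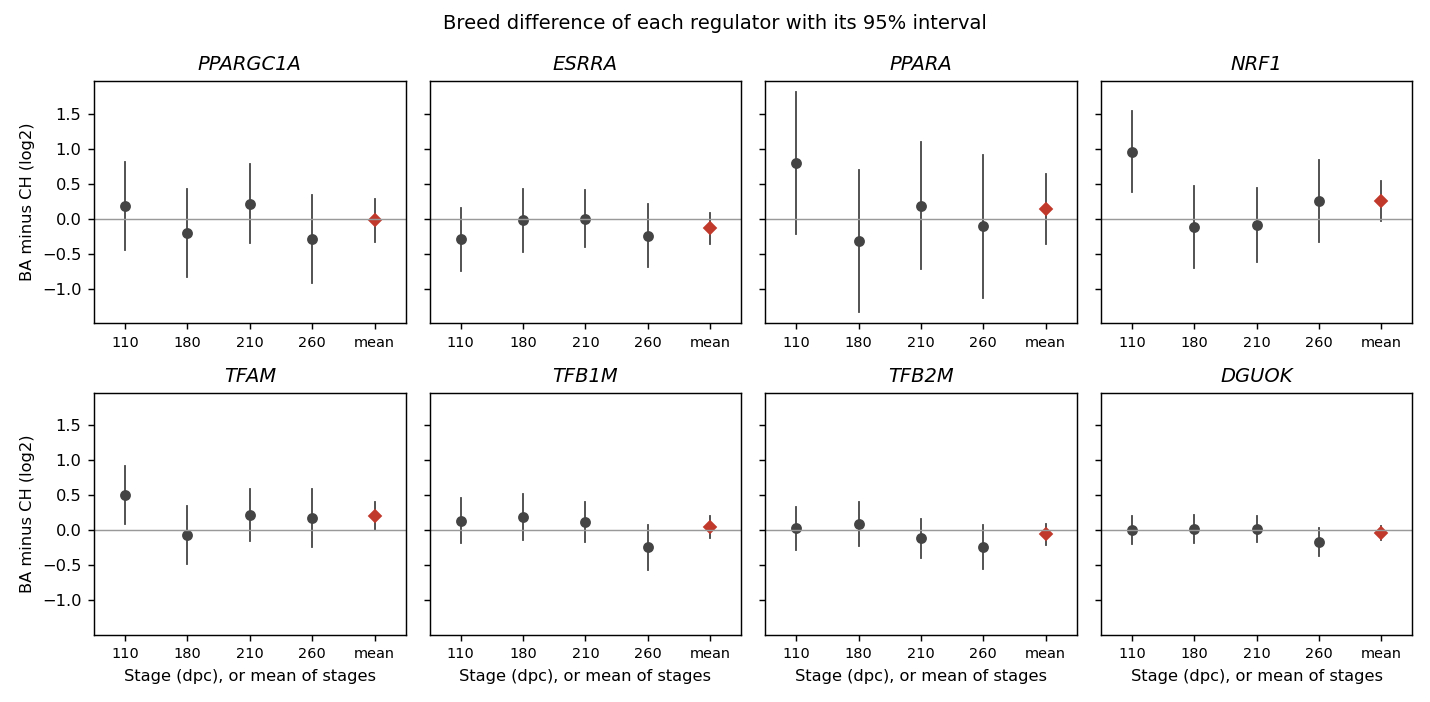
BA minus CH (log2) for each regulator at each stage in days post conception (circles) and averaged over the stages (diamond), with 95% intervals from limma as bars. *NRF1* and *TFAM* at 110 dpc and *TFAM* on average have intervals above 0, and none of the values passed after adjustment over all probes.

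Stage by stage, limma called none of the 6 regulators at 110, 180, 210 or 260 dpc, beside 0.24%, 0.0252%, 0% and 0% of tested genes. At 110 dpc the unadjusted p was under 0.05 for *TFAM*, and at the other stages for none of the 6 brightest probes. *NRF1* at 110 dpc had the largest difference of any regulator, 0.96 higher in BA (SE 0.27, 95% interval 0.37 to 1.54, adjusted p = 0.273 in the limma fit of all probes). Its breeds did not overlap at that stage, beside 29.1% of tested probes, which do not include the *NRF1* probe. At 260 dpc BA lay below CH without overlap in *ESRRA* (−0.25), *TFB2M* (−0.24), *TFB1M* (−0.24) and *DGUOK* (−0.17), as did 19% of tested probes in one direction or the other. For *TFB2M* and *DGUOK* every probe, and for the other 2 the brightest, showed this order with 2 foetuses against 3. The 2 BA foetuses were female, while 2 of the 3 CH foetuses were male. By the brightest probe, the nearest BA and CH foetuses almost touched for *TFB2M* (2.639 and 2.641) and *TFB1M* (4.076 and 4.080). Those of *ESRRA* were also close (4.933 and 4.952), and those of *DGUOK* lay further apart. The *PPARGC1A* difference there was −0.29 (95% interval −0.92 to 0.34), with 1 BA foetus inside the CH range.

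The change from 110 to 260 dpc did not differ between the breeds for any regulator at an adjusted p under the threshold, and limma called 0% of tested genes in this comparison. None of the 6 brightest probes had an unadjusted p under 0.05. The change in BA minus that in CH was −0.46 for *PPARGC1A* (95% interval −1.35 to 0.43), 0.05 for *ESRRA* (−0.59 to 0.68), −0.26 for *TFB2M* (−0.71 to 0.18), −0.33 for *TFAM* (−0.91 to 0.26), −0.38 for *TFB1M* (−0.83 to 0.08) and −0.17 for *DGUOK* (−0.46 to 0.12). With 2 or 3 foetuses per group these intervals are wide, and that of *PPARGC1A* spans more than its own change over gestation. The respiratory chain genes gave the same count, 0 of 75 called between the breeds on average by limma (4 with an unadjusted p under 0.05), with a median of −0.07. The median of all tested probes was −0.01. Most of these differences had the same sign, since 8 of the 75 genes were higher in BA on average and 20 of the 75 at 260 dpc. Whether this lean towards CH exceeds the spread between foetuses was not tested.

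The stage comparisons were also taken within scan days and slides. Among the arrays of the second scan day, 3 foetuses of each stage, the change from 110 to 260 dpc was 1.60 for *PPARGC1A*, 1.70 for *ESRRA*, 2.02 for *PPARA* and 0.43 for *TFB2M*. On the first scan day, with 1 foetus of 110 and 2 of 260 dpc, it was 1.11, 1.32, 2.28 and 0.30. The 1 slide that held both stages gave 1.83, 2.41, 2.78 and 0.55 for 1 foetus each. Its foetus of 110 dpc was BA and its foetus of 260 dpc CH, so stage and breed are mixed there. That BA foetus had the lowest *PPARGC1A* and *ESRRA* levels of all 21. All 4 genes kept their direction in each of these comparisons, while *NRF1* did not (−0.17, 0.89 and −0.47). The slide was read on the second scan day, so its 2 arrays count in both, and the third scan day held no foetus of 260 dpc. An exact two-sided permutation of the 2 stages within breeds, which has 100 arrangements and cannot go below p = 0.01, gave p = 0.01 for *PPARGC1A*, *ESRRA* and *PPARA* and p = 0.02 for *TFB2M*.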

How the data were processed

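RNA of 21 foetal muscles was hybridized to Agilent bovine arrays, 1 Cy3-labelled sample per array. Deposited scanner files hold intensity values that Agilent Feature Extraction 10.7 had detrended with no background subtracted. The study's methods name normalization within and between arrays, but the deposited values differ in overall brightness and so were not scaled. A further deposited table gives the authors' log2 values, and 99.9958% of its 649670 entries differed by at most 0.01 from log2 scanner intensities.

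Control spots and 258 outlier spot values, none of a regulator, were left out, and spots of a probe were averaged. Each array's 75th percentile (525 to 1174 intensity units) was subtracted on the log2 scale and a constant of 2.69 added. Transcript accessions, looked up in RefSeq genes (ARS-UCD2.0), gave names to 26628 of 43653 probes. Positions are not given because the design used a different assembly, and no probe sequence was used here. A gene's value is that of its brightest probe past the filter, or of its brightest probe where none passed.

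The 8 breed and stage groups were fitted with limma 3.58.1 (R 4.3.3, data.table (1.17.8), files read with Python 3.11.15 and pandas 2.3.3, figures drawn with matplotlib 3.10.9), with 13 residual and 3.79 prior degrees of freedom, and p values were adjusted by Benjamini-Hochberg at 0.05. The fit was tested on simulated data. Single values were compared by exact permutation. Named list genes are the 2 called genes of lowest p in each direction of each list. *POLG2*, *POLRMT* and *PLIN2*, which did not pass, and the genes said to be named after their values were seen fall outside this rule. The regulators and the gene lists were chosen with earlier results of these data known, and 1 marker gene is not reported here. The alternatives were normexp (offset 50, on median signals), quantile and median scaling, the authors' values, all probes, only detected probes, models with sex, slide, scan day, replicate number or sire, females alone, each stage alone, a trended and robust variance, the mean of a gene's probes, and each array left out.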

Additional observations from a re-analysis of the deposited data

How the results depend on the processing

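Between 110 and 260 dpc 3 of the 6 regulators past the filter were called, as they were without any 1 array. The count was 2 of 6 on the authors' table, 4 of 6 under quantile scaling and 4 of 8 without the filter. No regulator was called between breeds, or for a breed difference in the change, under any of them. Respiratory chain calls ranged from 69 to 75, and from 74 to 75 without 1 array. With the replicate number as a block the counts were 3, 0, 0 and 75. The numbers did not pair foetuses (median correlation 0.03 over 66 pairs of the same number and −0.0031 over 126 others).

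Signs turned only for uncalled values, and the cause was not tested. Normexp gave 0.19 for *NRF1* from 210 to 260 dpc (0.0342 relative to the median probe) and −0.00168 for the *PPARA* breed difference, and quantile scaling 0.0337 and −0.0155. Median scaling raised the median tested probe by 0.13 from 110 to 260 dpc and by 0.12 in the last step. It gave 0.0231 for the last step of *NRF1*, 0.0562 for *TFB1M* and 0.0352 for *DGUOK* from 110 to 260 dpc, and 0.0815 for *DGUOK* in the last step. On the authors' table that median fell by 0.36 from 110 dpc and by 0.39 in the last step, and was 0.04 for the breed difference. In the fit of all probes, used for *NRF1* and *PPARA*, it fell by 0.37 and 0.41. On this table changes from 110 dpc were −0.25 for *NRF1* and −0.36 for *TFAM*, last steps −0.38 for *PPARA*, −0.31 for *TFAM* and −0.28 for *TFB1M*, and breed differences 0.0299 for *PPARGC1A* and 0.0203 for *DGUOK*. With slide in the model *TFB1M* gave 0.12 from 110 dpc and *DGUOK* 0.0196 in the last step, where scan day gave 0.0124. The mean of the probes gave 0.0860 from 110 dpc and 0.0571 in the last step for *DGUOK*. Females alone gave −0.0124 for *NRF1* from 110 dpc, −0.0108 for the last step of *PPARA* and 0.0071 for that of *DGUOK*. Sire in the model gave 0.0122 for the *PPARGC1A* breed difference.

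Without 1 array, breed differences ranged from −0.0940 to 0.0586 for *PPARGC1A* and −0.15 to 0.42 for *PPARA*. The changes from 110 dpc ranged from −0.0181 to 0.24 for *NRF1*, −0.0473 to 0.13 for *TFAM* and −0.10 to 0.0213 for *TFB1M*, and the last steps from −0.23 to 0.0252 for *NRF1* and −0.0353 to 0.0077 for *DGUOK*. Dim probes such as *PPARA* limit what can be read from single foetuses.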
